A study of Anser anser with 16 samples.

Results

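Growth rate was compared within the pituitary of male geese, in the 8 pituitary libraries of a series of 16 that also holds the hypothalamus of the same birds. The 4 high-growth birds carry the numbers 49, 50, 52 and 54 in the sample titles, and the 4 low-growth birds the numbers 33, 37, 38 and 40. All were male White Kołuda geese of strain W33, sampled at day 108, reared indoors at first and then with free range under an oat-fattening scheme. The labels say which birds grew fast or slowly, not by how much or by which rule they were chosen. They give 4 rearing pens but not which bird came from which, and do not say whether the whole gland or the anterior lobe was taken. Values of single birds are given below in the order 49, 50, 52, 54 and 33, 37, 38, 40.

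The anterior pituitary holds separate lineages of endocrine cells. Somatotrophs secrete growth hormone, lactotrophs prolactin, corticotrophs the corticotropin cut from the POMC precursor, and gonadotrophs and thyrotrophs hormones that share the CGA subunit. Releasing and inhibiting factors from the hypothalamus act on receptors of these cells. Folliculostellate cells, which make no hormone, surround them. Growth hormone drives growth partly through IGF1 made by the liver, and pituitary cells also carry receptors for the hormones that feed back from the body.

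The hormone genes of the labelled tissue were abundant. The 8 measured markers of anterior pituitary endocrine cells summed to 124760 to 148150 CPM (counts scaled to a common library size and for composition) in the high-growth birds and to 99520 to 143740 CPM in the low-growth birds. Library totals were 8543585 to 13464132 counts in the high-growth birds, where bird 54 had the smallest library, and 11175363 to 14456667 counts in the low-growth birds. The labels name no extraction or sequencing batch. The titles give each library its own bird number, and the p-values below measure the spread between these 8 animals.

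The main axis of variation did not follow growth rate. The first principal component held 38.8% of the variance and set bird 50 (score 49.8), bird 38 (33.7) and bird 40 (20.5) apart from the other 5 birds (-42.6 to -3.71), so that both groups lay on both sides. The same 3 birds had the highest levels of astrocyte, myelin, and macrophage and microglia markers. The 9 measured astrocyte markers summed to 306 to 572 CPM in the high-growth birds and 303 to 522 CPM in the low-growth birds, and the 5 myelin markers to 72.2 to 288 CPM in the high-growth birds and 74.5 to 249.6 CPM in the low-growth birds. Red blood cell markers (5 measured) ran from 83.1 to 277 CPM in the high-growth birds and 82.5 to 367 CPM in the low-growth birds. Skeletal muscle markers (6 measured) ran from 47.4 to 1042 CPM in the high-growth birds and from 46.6 to 247 CPM in the low-growth birds, highest in bird 50 and next in bird 38. The appetite peptide AGRP, made by hypothalamic neurons, was measured at 1.11, 25.5, 1.57 and 2.87 CPM in the high-growth birds, against 0.869, 0.717, 28.2 and 53.2 CPM in the low-growth birds. Fewer cells of a type and less RNA per cell cannot be told apart in such bulk tissue, and the part of these tissues in the results below was not tested beyond giving values without birds 38, 40 and 50.

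**Figure D1:**
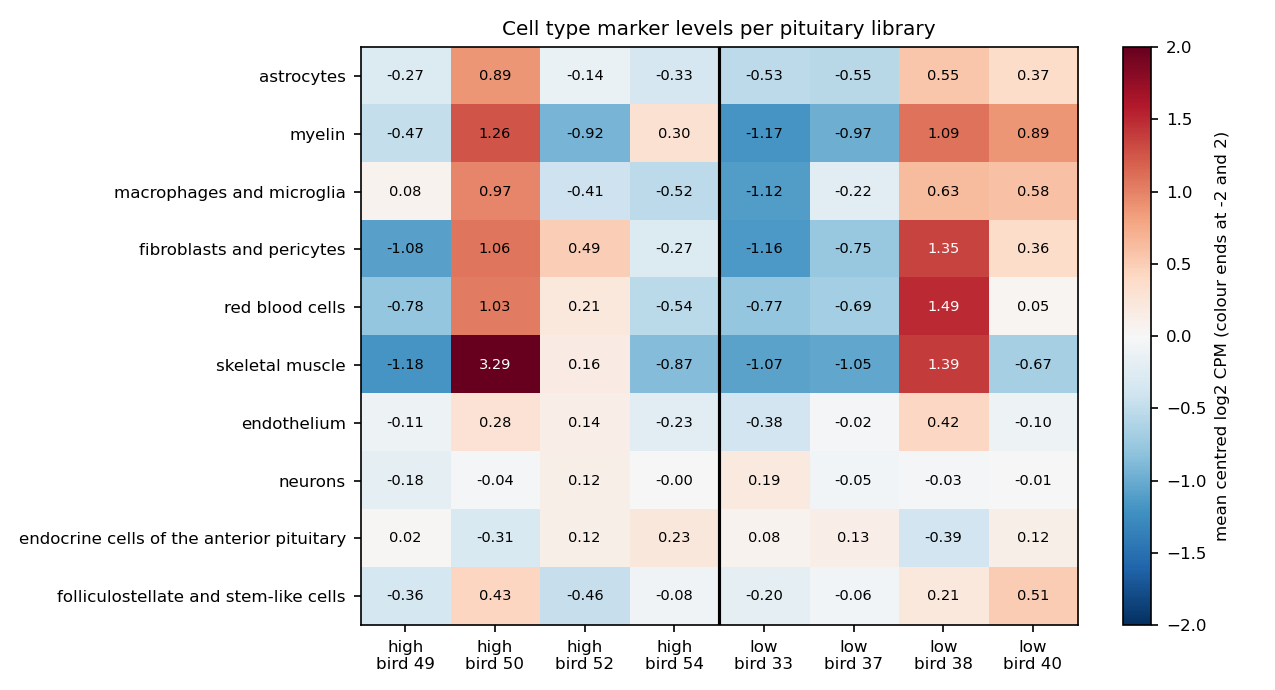
Level of 10 cell type marker lists in each pituitary library, as the mean over a list's measured genes of log2 CPM centred on the 8 birds, with the high-growth birds left of the line and the low-growth birds right of it. Birds 50, 38 and 40 have the highest astrocyte levels (0.89, 0.55 and 0.37), and skeletal muscle reaches 3.29 in bird 50.

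No gene passed at an adjusted p under 0.05. EdgeR's quasi-likelihood test called 0 of 13471 genes (0%), with 266 (1.97%) at an unadjusted p under 0.05, of which 171 (1.27%) were higher and 95 (0.705%) lower in the high-growth birds. When libraries were scaled by their totals alone, the genes at that p were 141 higher and 120 lower, so the split moved from 64.3% higher to 54.02% higher. Limma voom also called 0 genes, with 300 at an unadjusted p under 0.05. The DESeq2 Wald test called 5 of 13445 (0.0372%), with 320 at an unadjusted p under 0.05. In 195 genes (1.45%) every high-growth bird lay on the same side of every low-growth bird, 113 of them (0.839%) higher and 82 (0.609%) lower in the high-growth birds. By chance alone about 5 percent of genes are expected at an unadjusted p under 0.05, and the 1.97% seen by edgeR lay below that. The share without overlap expected by chance was not computed. Shares of all genes given below for comparison are those seen in these birds, not chance rates. A list above such a share is not thereby above chance.

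The differences were small for most genes, and the intervals say how small. On either side of the estimate, the 95% interval reached a median of 0.39 on the log2 scale over all 13471 genes. It reached 1.06 in the 307 genes under a mean of 1 CPM, 0.72 in the 3446 genes at 1 to 10 CPM, 0.34 in the 7816 genes at 10 to 100 CPM and 0.26 in the 1902 genes at 100 CPM or more. In 11183 genes (83.0%) the whole interval lay within a 2-fold difference in either direction, and in 7972 genes (59.2%) within 1.5-fold. At 100 CPM or more these shares were 96.6% and 88.4%, and at 1 to 10 CPM 55.8% and 10.5%. The median size of the difference was 0.10 on the log2 scale, and 95 percent of genes lay under 0.48. A difference over 0.5 was seen in 615 genes (4.57%) and one over 1, a 2-fold difference, in 100 genes (0.742%). Of those 100, 8 had no overlap between groups, against 1.45% of all genes, and bird 50 was the highest of the 8 birds in 34 and bird 49 in 23. Size and overlap are read from the same birds, so a share above that of all genes is not a finding.

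**Figure D2:**
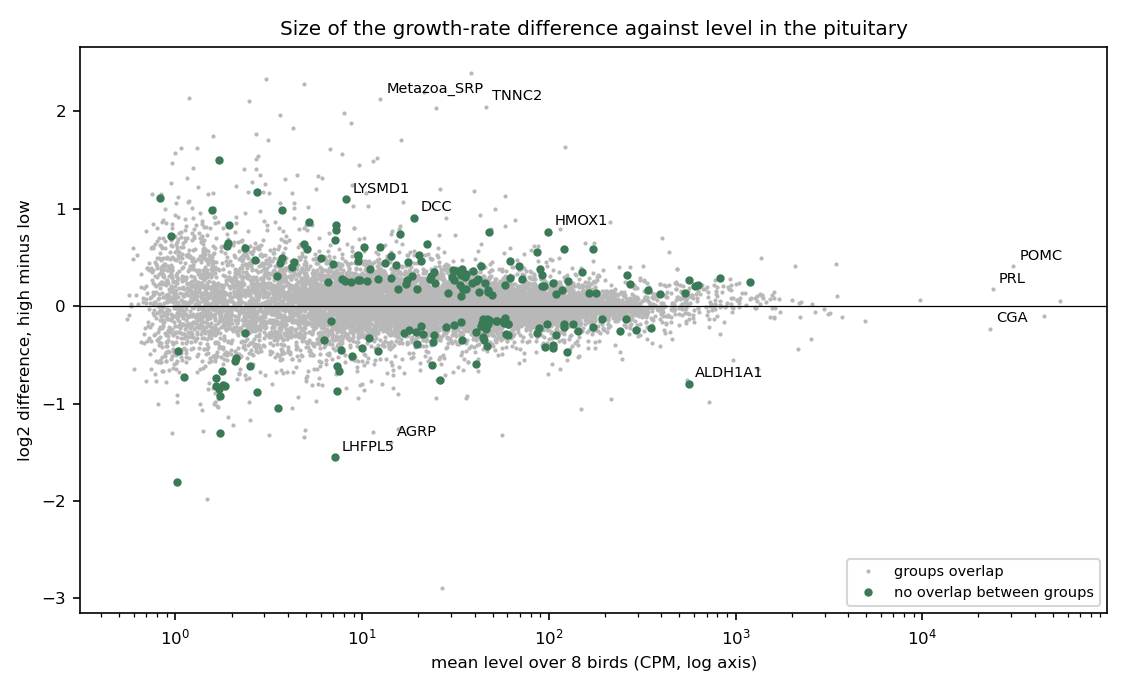
Log2 difference (high minus low growth rate) against the mean level over the 8 birds in CPM on a log axis, 1 point per gene of the 13471 tested, with the 195 genes whose groups do not overlap drawn larger and darker. LHFPL5 lies apart among these at -1.55, while Metazoa_SRP (2.12), TNNC2 (2.05) and AGRP (-1.39) overlap between groups.

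Among genes higher in the high-growth birds, HMOX1, DCC and DNLZ were called by DESeq2. HMOX1 (ENSACDG00005017735, a protein-coding gene on KZ156030.1 from 365603 to 371316) encodes the inducible heme oxygenase, which breaks heme down to biliverdin, iron and carbon monoxide. It stood at 102, 128, 142 and 128 CPM in the high-growth birds, against 69.9, 73.9, 73.9 and 76.1 CPM in the low-growth birds. The log2 difference was 0.77 ± 0.11 (SE), with a 95% interval of 0.52 to 1.01 and an adjusted p of 0.292 by edgeR's test and 2.80e-06 by DESeq2. The low-growth birds lay within a narrow band, and every high-growth bird lay above it. DCC (ENSACDG00005005726, a protein-coding gene on KZ155961.1 from 1511198 to 1936722), the receptor through which netrin guides growing axons, stood at 21.5, 27.9, 28.7 and 21.2 CPM in the high-growth birds, against 15.5, 13.5, 13.01 and 10.8 CPM in the low-growth birds, a difference of 0.91 ± 0.16 with adjusted p-values of 1.00 by edgeR and 0.00336 by DESeq2. DNLZ (ENSACDG00005019413, a protein-coding gene on KZ155848.1 from 9129053 to 9130894), a zinc finger partner of the mitochondrial HSP70 chaperone, stood at 20.2, 22.8, 19.0 and 18.1 CPM in the high-growth birds, against 12.2, 12.2, 10.5 and 13.003 CPM in the low-growth birds, a difference of 0.74 ± 0.14 (adjusted p of 0.00437 by DESeq2). Without birds 38, 40 and 50 the differences were 0.78 for HMOX1, 0.72 for DCC and 0.65 for DNLZ.

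The next genes by p in that direction, chosen among those with a symbol and without overlap between groups, had an adjusted p of 1.00 by edgeR. CALB2, the calcium-binding protein calretinin, stood at 126, 164, 158 and 132 CPM in the high-growth birds, against 119.9, 90.1, 85.7 and 90.4 CPM in the low-growth birds (0.59 ± 0.14), where low-growth bird 33 came near the high-growth birds. LYSMD1, a LysM domain protein, stood at 11.1, 14.3, 9.18 and 10.3 CPM in the high-growth birds, against 3.98, 3.80, 5.62 and 7.60 CPM in the low-growth birds, the largest of these differences at 1.10 ± 0.26. KLHDC8B, a kelch repeat protein of the dividing cell's midbody, differed by 0.64 ± 0.15, VAMP1, a vesicle SNARE of exocytosis, by 0.47 ± 0.11, and RARRES1, a gene first found as induced by retinoids, by 0.59 ± 0.15. BMP7, a bone morphogenetic protein, stood at 20.7, 23.7, 29.3 and 21.8 CPM in the high-growth birds, against 17.7, 16.1, 16.2 and 16.2 CPM in the low-growth birds (0.53 ± 0.14). RPS15, a protein of the small ribosomal subunit, differed by 0.32 ± 0.08, with 283, 298, 288 and 291 CPM in the high-growth birds and 255, 223, 213 and 237 CPM in the low-growth birds. The gap between groups was narrow in CALB2 and VAMP1, where the lowest high-growth bird stood at 64.5 CPM and the highest low-growth bird at 60.8 CPM.

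Among genes lower in the high-growth birds, LHFPL5 and ALDH1A1 were called by DESeq2. LHFPL5 (ENSACDG00005004119, a protein-coding gene on KZ155896.1 from 5329569 to 5333945), which in mammals belongs to the complex that hair cells use to sense sound, stood at 2.92, 4.36, 4.10 and 3.23 CPM in the high-growth birds, against 8.11, 11.5, 11.5 and 11.8 CPM in the low-growth birds. Its difference was -1.55 ± 0.22 with a 95% interval of -2.04 to -1.06, and its adjusted p was 0.292 by edgeR and 2.80e-06 by DESeq2. This interval and that of HMOX1 are single-gene intervals, not corrected for both genes having been picked by their p. ALDH1A1 (ENSACDG00005013139, a protein-coding gene on KZ156055.1 from 1299069 to 1336194), which oxidises retinal to retinoic acid, stood at 474, 371, 381 and 421 CPM in the high-growth birds, against 819, 659.7, 487 and 889.7 CPM in the low-growth birds, a difference of -0.79 ± 0.18 (adjusted p of 0.0397 by DESeq2). The lowest low-growth bird, bird 38, lay just above the highest high-growth bird, bird 49. Without birds 38, 40 and 50 the differences were -1.52 for LHFPL5 and -0.80 for ALDH1A1.

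Others without overlap in this direction were not called by DESeq2, limma voom or edgeR. ADAMTSL3, a secreted glycoprotein of the extracellular matrix, stood at 35.8, 31.6, 33.4 and 29.2 CPM in the high-growth birds, against 64.1, 48.2, 43.2 and 40.6 CPM in the low-growth birds (-0.59 ± 0.15). ANO6, a calcium-activated phospholipid scramblase, differed by -0.41 ± 0.11, LIMCH1, an actin-binding protein that activates non-muscle myosin, by -0.43 ± 0.12, and UTRN, the dystrophin relative utrophin, by -0.47 ± 0.14. BHLHE40, a repressor of the circadian clock, stood at 21.4, 18.9, 17.2 and 17.8 CPM in the high-growth birds, against 28.1, 22.9, 26.2 and 37.4 CPM in the low-growth birds (-0.60 ± 0.16). CHRNA5, a nicotinic acetylcholine receptor subunit, was scarce at 5.69, 3.77, 5.45 and 5.98 CPM in the high-growth birds, against 12.4, 7.53, 7.11 and 11.1 CPM in the low-growth birds (-0.87 ± 0.25). BMPR1A, a type I receptor for bone morphogenetic proteins, differed by -0.35 ± 0.10 and ST13, a cochaperone of HSP70, by -0.26 ± 0.08. The smallest of these differences, that of ST13, still separated 123 to 135 CPM in the high-growth birds from 152 to 164 CPM in the low-growth birds.

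**Figure D3:**
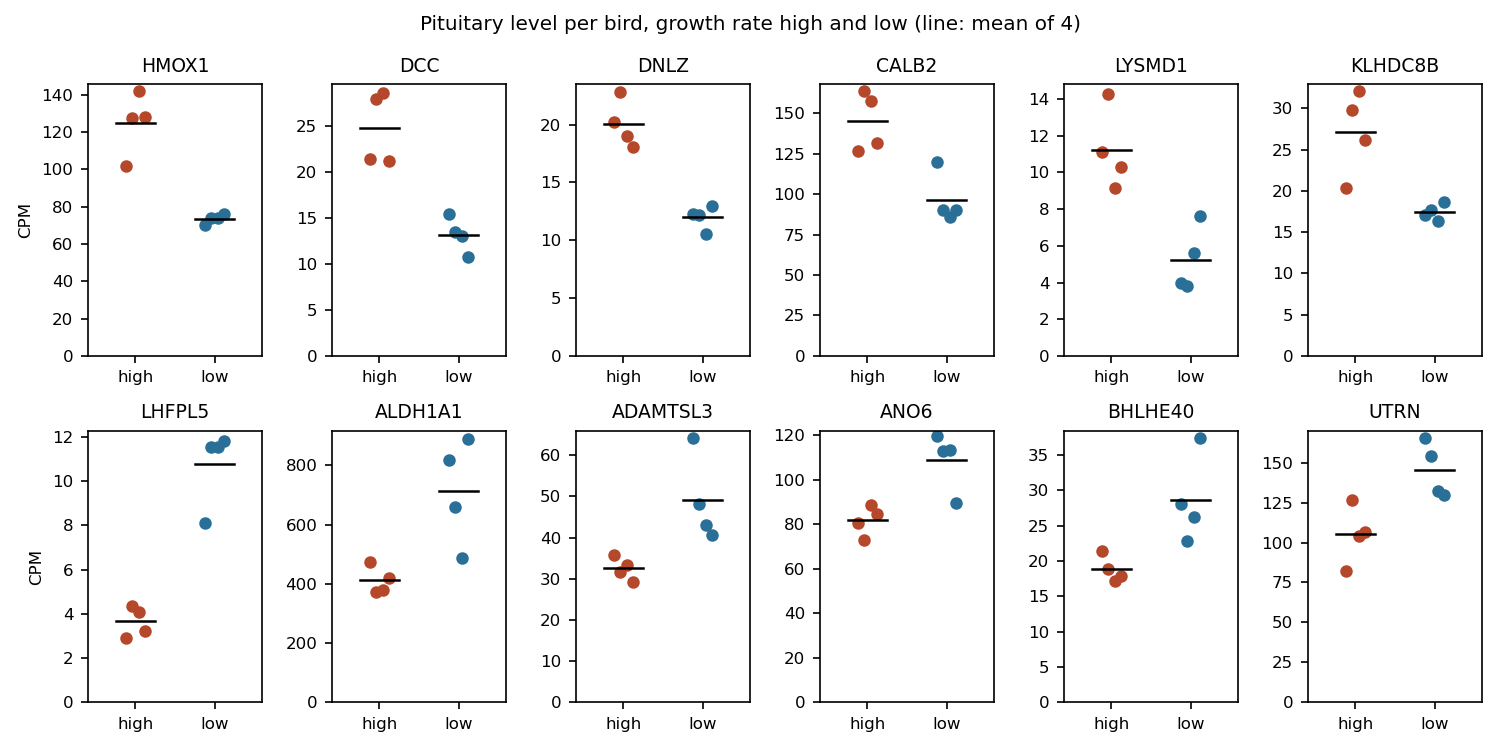
Level in CPM of 12 leading genes in each of the 4 high-growth and 4 low-growth pituitaries, with the mean of each group as a line and every axis starting at 0. The 12 were chosen among genes with a symbol whose groups do not overlap, so that separation is not a finding. The gaps are wide in HMOX1 and LHFPL5 and narrow in ANO6. There the low-growth bird nearest to the other group stood at 89.5 CPM and the highest high-growth bird at 88.5 CPM.

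Among genes with a symbol and a mean of 1 CPM or more, the 10 with the largest differences were taken, 5 in each direction. Apart from LHFPL5 these overlapped between groups, and several were set by 1 bird. Genes without a symbol were not ranked. TNNC2, a calcium sensor of the muscle sarcomere, stood at 4.58, 265, 20.7 and 5.62 CPM in the high-growth birds, against 3.77, 6.16, 54.9 and 6.59 CPM in the low-growth birds, a difference of 2.05 ± 1.33. Without bird 50 it was -0.78. PFKM, the muscle form of phosphofructokinase (1.88 ± 1.14), and CACNA1S, the calcium channel of skeletal muscle (1.83 ± 1.08), likewise read -0.48 and -0.58 without that bird. Metazoa_SRP, the RNA of the signal recognition particle, stood at 58.1, 5.84, 12.5 and 4.90 CPM in the high-growth birds, against 4.71, 3.44, 4.12 and 6.50 CPM in the low-growth birds, with bird 49 far above the rest (2.12 ± 0.74, and 0.73 without it). SLC26A1, a sulfate transporter, stood at 0.948, 2.00, 0.895 and 13.03 CPM in the high-growth birds, against 0.652, 1.00, 1.85 and 1.28 CPM in the low-growth birds, with bird 54 apart (1.77 ± 0.86, and 0.10 without it). In the other direction, MX2, an interferon-induced antiviral protein, stood at 51.9, 49.5, 18.9 and 7.89 CPM in the high-growth birds, against 77.9, 11.5, 61.1 and 172 CPM in the low-growth birds (-1.32 ± 0.74), and CEL, a lipase of the exocrine pancreas, at 63.6, 181, 101 and 37.4 CPM in the high-growth birds, against 29.8, 466, 68.1 and 235 CPM in the low-growth birds (-1.06 ± 0.76). ATP6V1G3, a proton pump subunit, stood at 5.45, 8.28, 8.43 and 14.7 CPM in the high-growth birds, against 36.4, 8.24, 7.04 and 36.1 CPM in the low-growth birds (-1.26 ± 0.57), where birds 33 and 40 were high and birds 37 and 38 lay among the high-growth birds.

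Hormone genes showed no difference beyond the spread between birds. POMC stood at 32531, 27680, 43048 and 36829 CPM in the high-growth birds, against 33012, 22764, 20045 and 29391 CPM in the low-growth birds, a difference of 0.41 ± 0.19 with a 95% interval of -0.02 to 0.84. Birds 52 and 54 lay above every low-growth bird, and birds 49 and 50 lay among them. PRL stood at 19346, 13960, 24824 and 42849 CPM in the high-growth birds, against 24747, 18684, 11595 and 34353 CPM in the low-growth birds (0.18 ± 0.39) and CGA at 26787, 12450, 12061 and 33862 CPM in the high-growth birds, against 17317, 27225, 15844 and 39478 CPM in the low-growth birds (-0.23 ± 0.40), and both groups spanned more than a 2-fold range. The sign of PRL turned without bird 54 (-0.21) or 38 (-0.05), and that of CGA without bird 40 (0.08) or without birds 38, 40 and 50 (0.12). Growth hormone, LHB and several regulators have no named row among the tested genes of the main table and were read from the authors' de novo assembly. Assembled values, here and below, are those counted by kallisto unless Salmon is named. Assembled growth hormone stood at 40180, 46813, 29607 and 23324 estimated CPM in the high-growth birds, against 21044, 58770, 36685 and 35758 in the low-growth birds (-0.12 ± 0.31), and assembled LHB, the luteinising hormone subunit, differed by 0.26 ± 0.35. By Salmon the growth hormone level was lower, at a mean of 13683 estimated CPM in the high-growth birds and 14642 in the low-growth birds (-0.10 ± 0.33). CHGA, the granule protein chromogranin A, differed by 0.05 ± 0.24 in the main table and by 0.06 ± 0.27 in the assembly. None of these assembled genes passed over the assembly.

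Of 24 measured transcription factors of the pituitary lineages, 16 were higher and 8 lower in the high-growth birds, with a median of 0.09 against 0.00 over all genes. At an unadjusted p under 0.05 there were 3 of the 24, all higher, INSM1 and TBX19 among them. Over all genes 1.27% were at that p and higher. INSM1, a zinc finger factor of endocrine differentiation, stood at 227, 244, 237 and 139 CPM in the high-growth birds, against 158, 133, 112 and 138 CPM in the low-growth birds (0.65 ± 0.18), with bird 54 apart from the other high-growth birds and at the level of the low-growth group. TBX19, the factor that switches on POMC in corticotrophs, stood at 101, 87.8, 109 and 149 CPM in the high-growth birds, against 100.5, 73.2, 78.4 and 83.4 CPM in the low-growth birds (0.41 ± 0.17). NEUROD1, which also acts in corticotrophs, differed by 0.35 ± 0.17. NR5A1, the gonadotroph factor SF-1, stood at 171, 138, 288 and 211 CPM in the high-growth birds, against 381, 361, 143 and 288 CPM in the low-growth birds (-0.54 ± 0.31), and without birds 38, 40 and 50 the difference was -0.73. POU1F1, the factor of somatotrophs, lactotrophs and thyrotrophs, differed by -0.06 ± 0.17, and its sign turned without bird 54 (0.04) or 37 (0.03). SOX2, of pituitary stem and folliculostellate cells, differed by -0.28 ± 0.13. Assembled LHX3, which acts early in the lineages, differed by 0.08 ± 0.17. The median of the 24 factors was 0.03 without bird 40 and -0.03 without birds 38, 40 and 50.

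Receptors for releasing and inhibiting factors were measured for 16 genes, 10 higher and 6 lower, with a median of 0.13. At an unadjusted p under 0.05 there was 1 of the 16, against 1.97% of all genes. DRD3, a dopamine receptor, was lower at 4.58, 4.58, 5.75 and 1.91 CPM in the high-growth birds, against 9.92, 5.30, 6.75 and 7.51 CPM in the low-growth birds (-0.80 ± 0.33). DRD2, the dopamine receptor that restrains prolactin release in mammals, differed by 0.30 ± 0.32. AVPR1A, a vasotocin-type receptor, stood at 114, 123, 122 and 63.9 CPM in the high-growth birds, against 112, 61.1, 55.1 and 46.9 CPM in the low-growth birds (0.62 ± 0.29), where bird 54 lay among the low-growth birds and bird 33 just under the other 3 high-growth birds. AVPR1B, which acts on corticotrophs in mammals, differed by 0.10 ± 0.18, CRHR2, a receptor of the corticotropin-releasing hormone family, by 0.39 ± 0.28, and assembled CRHR1 by 0.34 ± 0.56. The somatostatin receptors SSTR2 (0.18 ± 0.49) and SSTR5 (-0.10 ± 0.26), through which somatostatin holds back growth hormone, and TRHR (0.05 ± 0.25), the thyrotropin-releasing hormone receptor, lay within their errors of 0. Signs of these were not settled: SSTR2 read -0.35 without bird 50, -0.07 without bird 40 and -0.72 without birds 38, 40 and 50, and SSTR5 read 0.02 without bird 54 and 0.11 without bird 37. TRHR turned to -0.02, -0.06, -0.07 and -0.10 without bird 49, 52, 33 or 40, and AVPR1B to -0.04 and -0.01 without bird 54 or 33. Receptors for hormones and factors from the body were lower in 13 of 18 genes, with a median of -0.04. BMPR1A, already picked above among such genes, was the one without overlap, against 1.45% of all genes.

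In the families of the leading genes the leading gene was usually the one member at an unadjusted p under 0.05, a share near the 1.97% of all genes in the larger families. DCC was that gene among 43 netrin, slit and semaphorin genes. In that family 29 genes were higher and 14 lower with a median of 0.05, the netrin receptor UNC5C differed by 0.41 ± 0.25 and the plexin PLXNA4 by 0.49 ± 0.28. LHFPL5 was likewise alone among 11 genes of its family and of hair cell transduction, 8 of them lower, with a median of -0.04. PCDH15, its partner in the hair cell complex (0.34 ± 0.20), and MYO7A, another gene of this list (0.30 ± 0.17), were on the other side of 0. HMOX1 was the one such gene among 29 genes of the NRF2, heme and iron list (16 higher, 13 lower, median 0.03), and ANO6 among 5 anoctamins, all 5 lower with a median of -0.13. In the retinoic acid pathway 12 genes were measured, 4 higher and 8 lower, with ALDH1A1 and RARRES1 at opposite signs, the receptor RXRA at -0.34 ± 0.23 and the retinol receptor STRA6 at -0.37 ± 0.26.

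Other families were mixed. Among 21 calcium buffer and sensor genes, 12 were higher and 9 lower, from 0.59 in CALB2 to -0.52 in HPCAL4, named after its value was seen. Besides CALB2, the one gene at an unadjusted p under 0.05 was HPCAL1, a neuronal calcium sensor, at 95.4, 117, 96.6 and 98.1 CPM in the high-growth birds, against 78.3, 75.6, 80.7 and 91.9 CPM in the low-growth birds (0.32 ± 0.10). CALB2 and HPCAL1 were 2 of 21, against 1.27% of all genes at that p and higher. CALB2 was already picked above by its p, so this count is not independent of that choice. NECAB2 differed by 0.30 ± 0.14 and CALB1, calbindin, by 0.22 ± 0.17. Of 17 voltage-gated calcium channel genes 11 were higher and 6 lower, with a median of 0.07 that turned to -0.01 without bird 50 and to -0.06 without birds 38, 40 and 50. CACNA1I, a T-type channel that opens near resting potential, stood at 4.82, 6.29, 8.43 and 7.41 CPM in the high-growth birds, against 3.98, 3.73, 4.05 and 3.02 CPM in the low-growth birds (0.86 ± 0.24), with no overlap, while CACNA1G, another T-type channel, differed by 0.35 ± 0.16 and the N-type CACNA1B by 0.39 ± 0.20. The third T-type gene, CACNA1H, read -0.10 and CACNA2D3 -0.25, both named after their values were seen. GJD2, the gap junction protein connexin 36, is called in the authors' deposited table and stood at 49.1, 92.0, 61.1 and 47.1 CPM in the high-growth birds, against 27.3, 32.1, 36.4 and 47.9 CPM in the low-growth birds (0.80 ± 0.24). The GDNF receptors GFRA3, with 9.08, 12.1, 10.3 and 10.3 CPM in the high-growth birds and 11.4, 22.1, 21.4 and 19.9 CPM in the low-growth birds (-0.84 ± 0.22), and RET, their shared signalling subunit (-0.31 ± 0.12), were both lower among 7 genes measured.

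In TGF-beta, BMP and activin signalling 36 genes were measured, 10 higher and 26 lower, with a median of -0.05. The 4 at an unadjusted p under 0.05, against 1.97% of all genes, split by direction. BMP7 and GDF10, a divergent ligand of the family (0.86 ± 0.27), were higher, and BMPR1A and BMP3 (-0.80 ± 0.33), which opposes other BMPs, were lower. BMP7 and BMPR1A were already picked above by their p, so the count of 4 is not independent of that choice. GDF10 stood at 7.504, 5.10, 6.64 and 6.94 CPM in the high-growth birds, against 3.04, 2.44, 5.19 and 3.75 CPM in the low-growth birds, and BMP3 at 1.501, 1.70, 1.27 and 0.717 CPM in the high-growth birds, against 1.88, 3.01, 1.85 and 2.47 CPM in the low-growth birds. Of 61 matrix genes 28 were higher and 33 lower. The 4 at an unadjusted p under 0.05 were all lower, against 0.705% of all genes at that p and lower. They were ADAMTSL3, LAMA2, a laminin chain of basement membranes (-0.43 ± 0.15), FBN2, a fibrillin (-0.40 ± 0.16), and the protease ADAMTS19 (-0.61 ± 0.27). ADAMTSL3 was already picked above by its p, so this count too is not independent of that choice. Fibroblast and pericyte markers (13 measured) summed to 1242 to 2683 CPM in the high-growth birds and 829 to 2938 CPM in the low-growth birds, and their part in the matrix genes was not tested.

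GH and IGF signalling had 13 of 21 genes higher and 8 lower (median 0.11, and 0.02 without bird 50). CISH, a feedback inhibitor induced by growth hormone and prolactin, stood at 91.9, 96.0, 68.9 and 40.5 CPM in the high-growth birds, against 43.7, 39.0, 50.9 and 35.2 CPM in the low-growth birds (0.82 ± 0.25), where bird 54 lay among the low-growth birds. IRS2, an adaptor of the insulin and IGF receptors, stood at 33.6, 78.4, 77.8 and 34.9 CPM in the high-growth birds, against 15.6, 43.6, 34.2 and 24.3 CPM in the low-growth birds (0.93 ± 0.38), with a wide spread in both groups. IGFBP7, an IGF-binding protein, differed by 0.27 ± 0.11. Another, IGFBP4, was the lowest of the list at -0.51 ± 0.23. DDIT4, a stress-induced inhibitor of mTORC1 (0.80 ± 0.27), and CEBPD, a transcription factor of acute phase and glucocorticoid responses (0.86 ± 0.35), showed a similar pattern of birds to CISH, with birds 49, 50 and 52 high and bird 54 within the low-growth range, an observation made after their values were seen. In CEBPD, unlike CISH, 1 low-growth bird set the top of that range. Bird 37 stood at 248 CPM, against 112 to 132 CPM in the others of its group.

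Several large groups lay almost wholly on one side, by small amounts. Respiratory chain and ATP synthase subunits were higher in 40 of 41 genes, with a median of 0.16, against 51.3% of all genes tested higher and a median of 0.00. NDUFS5, of complex I, stood at 93.0, 121, 94.8 and 97.9 CPM in the high-growth birds, against 68.7, 87.1, 74.2 and 83.0 CPM in the low-growth birds (0.38 ± 0.12), and ATP5PF, of the ATP synthase, differed by 0.32 ± 0.11. Cytoplasmic ribosomal proteins were higher in 54 of 56 genes (median 0.13), with RPL31 at 657, 618, 571 and 609 CPM in the high-growth birds, against 569.7, 459, 495 and 515 CPM in the low-growth birds (0.27 ± 0.10) and RPL36 at a difference of 0.32 ± 0.11. Mitochondrial ribosomal proteins were higher in 47 of 52 genes (median 0.11), such as MRPL37 (0.28 ± 0.09). At an unadjusted p under 0.05 there were 6 respiratory, 7 cytoplasmic ribosomal and 2 mitochondrial ribosomal genes, all higher, against 1.27% of all genes at that p and higher. The mitochondrial ribosomal count is not far from that share, and RPS15 was already picked above by its p. Members of a list, here and in the other lists, come from the same 8 birds and can vary together. Counts of members are therefore not independent observations. By bird, the mean level of the cytoplasmic ribosomal list was 0.19, 0.05, 0.01 and 0.03 in the high-growth birds, against -0.01, -0.06, -0.11 and -0.11 in the low-growth birds, on a log2 scale centred on the 8 birds. That of the respiratory list was 0.15, 0.12, -0.03 and 0.08 in the high-growth birds, against -0.05, -0.16, -0.11 and -0.01 in the low-growth birds. The mitochondrial ribosomal list stood at 0.129, -0.003, -0.023 and 0.115 in the high-growth birds, against -0.017, -0.117, -0.129 and 0.046 in the low-growth birds. In the cytoplasmic ribosomal list the growth groups did not overlap, though birds 52 and 33 were close. In the respiratory list low-growth bird 40 lay above high-growth bird 52. The groups also overlapped in the mitochondrial ribosomal list, with bird 40 above birds 50 and 52 and bird 33 above bird 52. The medians of these lists kept their sign in all 18 other settings run for lists. With 1 bird left out the cytoplasmic ribosomal median was 0.08 (without bird 49) to 0.15, the mitochondrial ribosomal one 0.06 (without bird 37) to 0.13 and the respiratory one 0.14 to 0.19.

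Clock genes were lower in 13 of 17 (median -0.14, from -0.22 without bird 40 to -0.07 without bird 54). The repressors PER2 and PER3 stood at 93.6, 87.3, 87.5 and 96.3 CPM in the high-growth birds, against 159, 104, 111 and 107 CPM in the low-growth birds (-0.40 ± 0.14) and 44.0, 45.2, 37.1 and 34.0 CPM in the high-growth birds, against 68.6, 50.6, 47.8 and 45.9 CPM in the low-growth birds (-0.41 ± 0.15), both with no overlap, as was BHLHE40. Clock genes without overlap were thus 3 of 17, all lower, against 0.609% of all genes without overlap and lower. BHLHE40 was already picked above by its p among genes without overlap, so this count is not independent of that choice. Of the activators, ARNTL differed by 0.21 ± 0.09, and CLOCK (-0.14) and NPAS2 (-0.34), named after their values were seen, lay on the side of the repressors. The labels used here give no hour of sampling. Interferon response genes were lower in 17 of 18 (median -0.32), with 0 at an unadjusted p under 0.05. PARP12 differed by -0.36 ± 0.17, the sensor IFIH1 by -0.43 ± 0.27 and the kinase EIF2AK2 by -0.33 ± 0.18, and list levels by bird spread widely, at 0.19, 0.39, -0.36 and -0.90 in the high-growth birds and 0.07, -0.46, 0.35 and 0.73 in the low-growth birds. Without bird 40, and likewise without birds 38, 40 and 50, the interferon median was -0.14. Folliculostellate and stem-like markers were lower in 12 of 12. ALDH1A1, already picked above by its p, and GFRA3 were at an unadjusted p under 0.05. Over all genes 0.705% were at that p and lower. CDH1, the epithelial cadherin, read -0.54 ± 0.31. Their list levels overlapped between groups, at -0.36, 0.43, -0.46 and -0.08 in the high-growth birds, against -0.20, -0.06, 0.21 and 0.51 in the low-growth birds. Birds 40, 50 and 38 were the highest, the birds that the first principal component set apart. The median of this marker list was not followed with birds left out.

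Medians lay closer to 0 in other groups. Secretory granule proteins split 14 to 14 among 28 genes (median 0.01), and genes of the unfolded protein response and secretory pathway 36 to 23 among 59 (median 0.01). Proteasome subunits were higher in 18 of 28 (median 0.03), splicing factors in 23 of 43 (median 0.00), tRNA synthetases in 14 of 28 (median 0.00) and translation factors in 19 of 49 (median -0.03). Solute carriers, the largest list, had 107 higher and 110 lower (median 0.00). Cell division genes were higher in 17 of 31 (median 0.02), heat shock and chaperone genes in 11 of 33 (median -0.03), and genes of cholesterol and fatty acid synthesis in 10 of 31 (median -0.07, a sign kept in all 18 settings, though -0.0016 without bird 37). In glycolysis and the citric acid cycle 24 of 34 were higher (median 0.02, and -0.02 without bird 50), and PFKP, the platelet form of phosphofructokinase, was lower without overlap at 329, 331, 316 and 318 CPM in the high-growth birds, against 359, 391, 360.4 and 400.1 CPM in the low-growth birds (-0.22 ± 0.08).

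**Figure D4:**
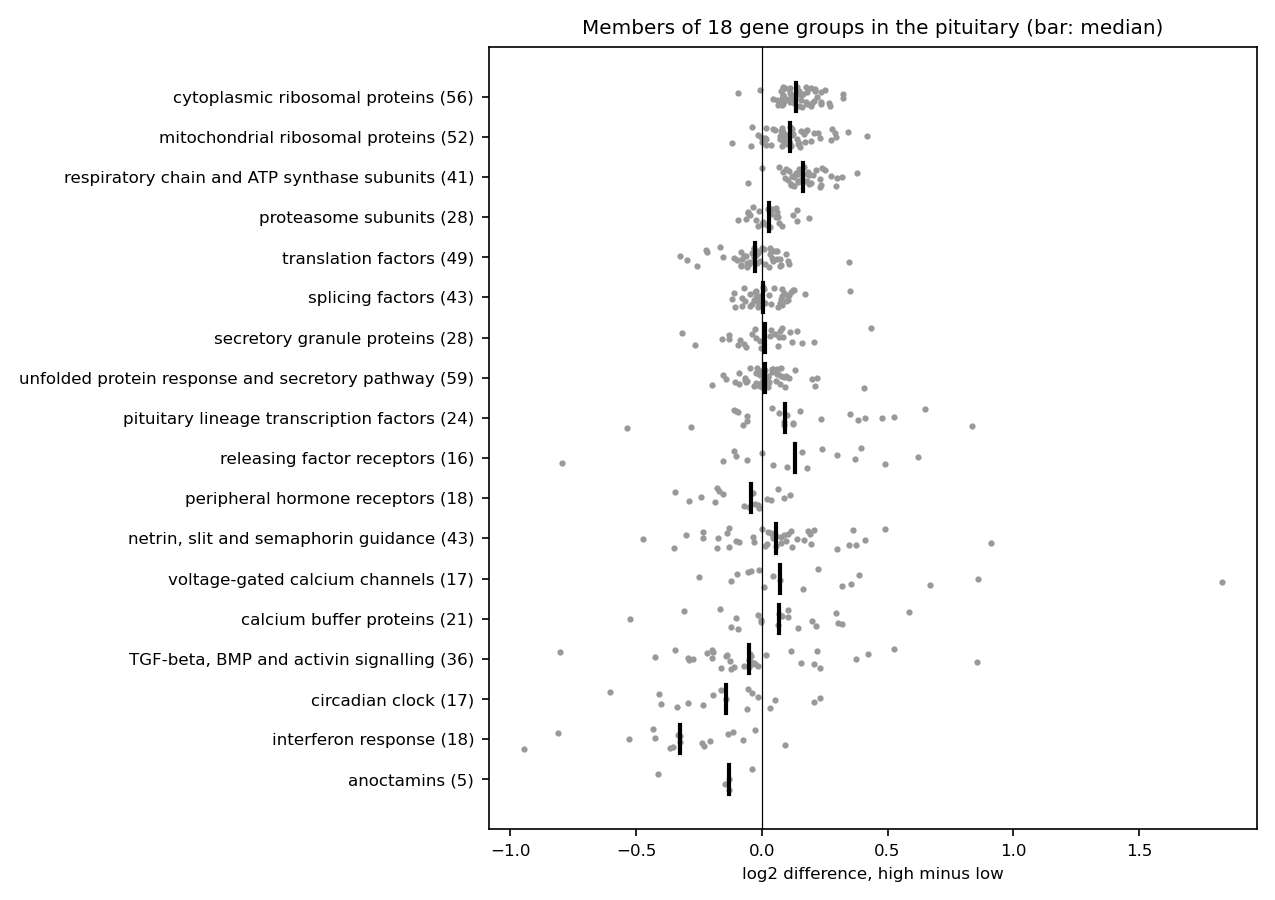
Log2 difference (high minus low growth rate) of each measured member of 18 gene groups, 1 grey point per gene, with the group's median as a bar and the number of members in brackets. Members of the ribosomal and respiratory groups lie close together on the positive side (medians 0.13, 0.11 and 0.16), and interferon genes are spread on the negative side (median -0.32).

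The authors' deposited table calls 51 of 12486 genes (0.408%) in the pituitary, 33 higher and 18 lower in the high-growth birds once its ratio, which runs low over high, is turned. Of the 51, 9 had no overlap between groups, against 1.45% of all genes, and 22 had an unadjusted p under 0.05 by edgeR, against 1.97% of all genes. The calls come from the same libraries. Bird 50 was the highest of the 8 birds in 25 of the 51, bird 40 in 8, bird 37 in 5 and bird 49 in 4. In 11 of the 51, 1 bird held over 50 percent of the sum of the 8 birds, 8 times bird 50. With its highest bird left out, the difference turned sign in 15 of the 51 and fell under 50 percent of its size in 10, where leaving out the highest bird always moves its group down. In the 11 dominated by 1 bird it turned in 10. ACTA1, skeletal muscle actin, stood at 25.7, 608, 78.1 and 30.0 CPM in the high-growth birds, against 22.7, 35.5, 137 and 44.1 CPM in the low-growth birds (1.63 ± 1.01, and -0.42 without bird 50), and GFAP, the astrocyte filament protein, at 3.40, 60.1, 2.91 and 4.78 CPM in the high-growth birds, against 2.39, 1.43, 12.0 and 9.25 CPM in the low-growth birds (1.52 ± 1.05, and -0.77 without it). CCNB1, a mitotic cyclin, stood at 3.40, 5.40, 3.36 and 55.4 CPM in the high-growth birds, against 2.82, 4.73, 5.55 and 10.6 CPM in the low-growth birds (1.49 ± 0.92, and -0.54 without bird 54), and SLC13A3, a dicarboxylate transporter, read 1.45 ± 0.89 and -0.12 without that bird. LHFPL5, HMOX1, DCC, LYSMD1, CALB2, RARRES1 and ALDH1A1 are the named genes called there whose groups did not overlap. SLC13A3 and GJD2 were chosen after their values were seen.

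The same libraries counted against another gene set gave nearly the same differences. Of 9321 genes matched by symbol between the table used here, whose identifiers begin with ENSACDG, and the one whose identifiers begin with ENSABRG, 92.8% had the same sign and 99.3% differed by under 0.2 on the log2 scale. Of the 132 matched genes without overlap in the first, 132 had the same sign in the second and 95 (72.0%) had no overlap there. Counted that way, 0 of 13587 genes passed, with 316 (2.33%) at an unadjusted p under 0.05 and 213 (1.57%) without overlap. These tables hold the same reads, so their likeness speaks of the counting and not of other birds.

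The de novo assembly, quantified by kallisto and Salmon, names its genes by protein entry, and matches rest on an identical name or, for named genes, on a hand-made list of entry names. By kallisto 4425 genes matched with 86.3% of the same sign, and by Salmon 4312 with 85.5%. Of 60 matched genes without overlap in the main table, 57 had the same sign and 24 (40%) no overlap by kallisto, and of 57 by Salmon, 56 and 22 (38.6%). EdgeR passed 0 of 92645 assembled genes by kallisto, with 1959 (2.11%) at an unadjusted p under 0.05 and 2065 (2.23%) without overlap, and 0 of 110127 by Salmon, with 3027 (2.75%) and 2619 (2.38%). The coefficient of biological variation was 0.689 by kallisto against 0.253 in the main table. LHFPL5 read -1.49 ± 0.20 in the second gene table, -1.98 ± 0.39 by kallisto and -1.67 ± 0.26 by Salmon, HMOX1 0.74 ± 0.11, 0.69 ± 0.11 and 0.70 ± 0.11, and DCC 0.92 ± 0.16, 0.90 ± 0.24 and 0.91 ± 0.25. DNLZ was smaller in the assembly, at 0.40 ± 0.16 and 0.39 ± 0.24, and so was CHRNA5, at -0.39 ± 0.26 and -0.49 ± 0.29. VAMP1, whose assembled match averaged 0.620 CPM in the high-growth birds and 0.642 CPM in the low-growth birds by kallisto, read -0.05 ± 0.87, against 0.47 ± 0.11 in the main table. DIO2, the deiodinase that activates thyroid hormone, was read from the assembly alone. It had the smallest p of the genes read that way and did not pass, with adjusted p-values by edgeR of 0.99993 (kallisto) and 0.99997 (Salmon). Its groups overlapped, with low-growth bird 33 just above high-growth bird 49. By kallisto it stood at 51.1, 53.5, 62.0 and 63.7 estimated CPM in the high-growth birds, against 51.2, 31.0, 35.9 and 44.2 in the low-growth birds (0.50 ± 0.17, and 0.51 ± 0.18 by Salmon).

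**Figure D5:**
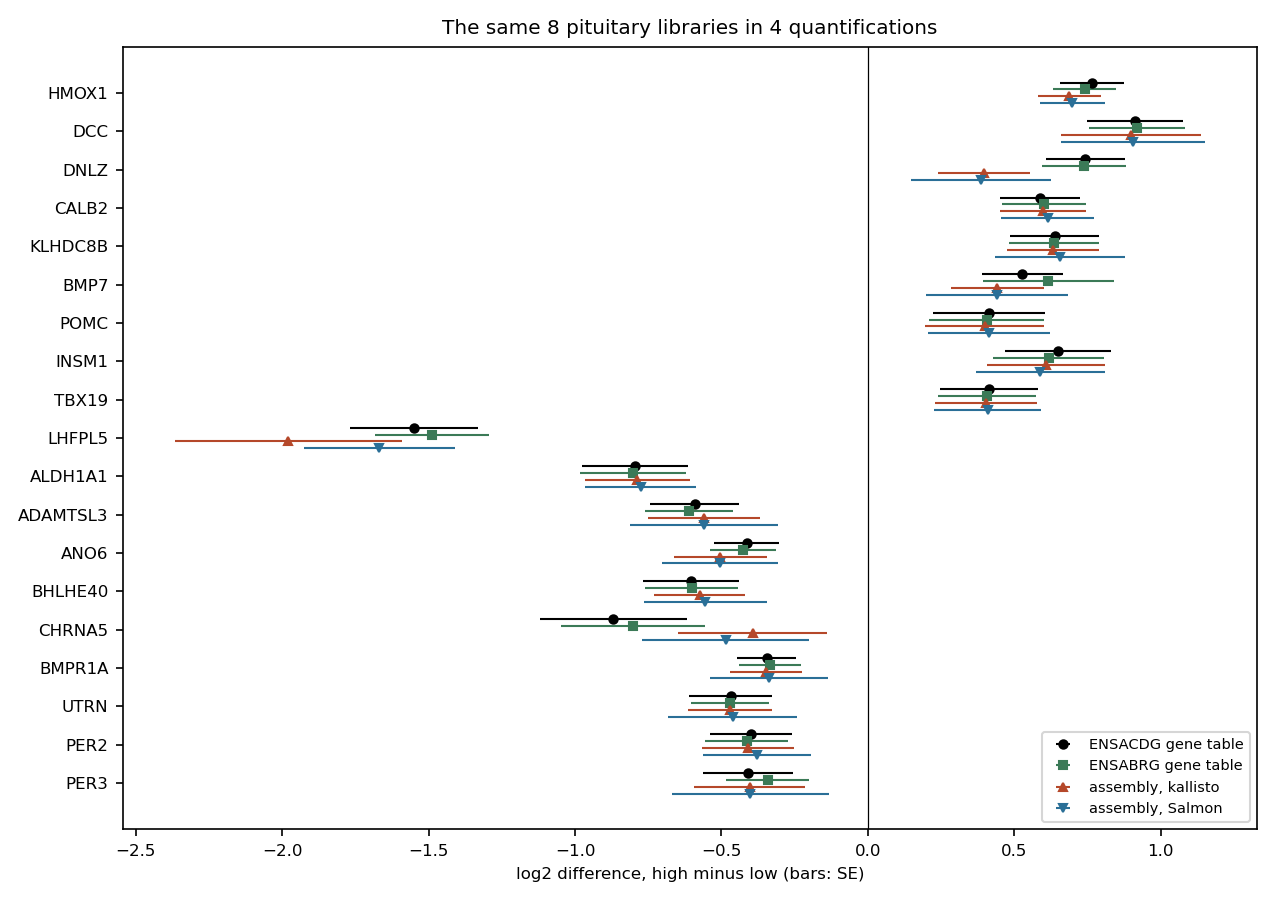
Log2 difference (high minus low growth rate) of 19 genes in the 4 quantifications of the same 8 libraries, with bars of 1 SE. Markers of a gene lie close together in most rows, and the assembled estimates stand apart for LHFPL5 (-1.98 by kallisto), DNLZ and CHRNA5.

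Whether the pituitary differences departed from those in the hypothalamus of the same birds was tested as an interaction. This is the pituitary difference minus the hypothalamus difference, over all 16 libraries. EdgeR passed 0 of 14394 genes, with 206 (1.43%) at an unadjusted p under 0.05, and DESeq2 called 1, LHFPL5. With the bird, which gave both tissues, as a block, 0 passed and 339 had an unadjusted p under 0.05. Without the block, the LHFPL5 interaction was -1.23 ± 0.21 (adjusted p of 0.451 by edgeR). For DCC it was 0.99 ± 0.23, for CACNA1I 0.97 ± 0.22, for BMP7 0.64 ± 0.17, for CHRNA5 -1.14 ± 0.33 and for ANO6 -0.53 ± 0.16. Those from DCC to ANO6 had an unadjusted p of 0.00388 or less and an adjusted p of 1.00 by edgeR. These genes and LHFPL5 were named by their pituitary difference, which the interaction contains. Their small unadjusted p-values are therefore not independent of that choice and are not a finding. With the bird as a block LHFPL5 read -1.23 ± 0.20, DCC 0.99 ± 0.20 and HMOX1 0.47 ± 0.29. In neither fit did the interaction reach an unadjusted p under 0.05 in HMOX1 (0.39 ± 0.34), ALDH1A1 (-0.18 ± 0.37), RPS15 (0.03 ± 0.12) and NDUFS5 (0.06 ± 0.15), values without the block.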

How the data were processed

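Total RNA, extracted with a PureLink kit and of RIN over 7, was made into TruSeq v2 libraries, per the labels' protocols. The authors deposited whole-number counts of reads per gene in the tables called here the ENSACDG and the ENSABRG gene tables, and estimated counts per assembled gene in a kallisto and a Salmon table, which were rounded to whole numbers. Per the submitters' processing notes, the tools were FastQC, STAR, RSEM, DESeq2, kallisto and Salmon, with no version or role. These notes name a pig assembly only. The goose build that the coordinates refer to was therefore not given in the sources used here. For the assembled genes, the deposited tables give the percent identity of each best protein match, as the authors computed it. The authors' deposited tables also give log2 ratios and p-values. Their ratio was taken to run low over high because all 51 pituitary calls then had the sign of the recomputed difference.

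Counts of the 8 pituitary libraries were filtered with filterByExpr, scaled by TMM and tested with edgeR 4.0.16 (quasi-likelihood F test, Benjamini-Hochberg, threshold 0.05; limma 3.58.1, DESeq2 1.42.0 and R 4.3.3 for alternatives). Symbols from the authors' table named 9808 of 13471 genes tested. Standard errors came from the F statistic, and 95% intervals from its t distribution. The interaction was fitted on 4 group means over 16 libraries, which leaves out that both tissues come from the same birds, and with the bird as a block as an alternative. The edgeR step was run on simulated counts as a check of the code. Those counts had the same dispersion for every gene and no variation shared between genes, so they do not stand in for these libraries. Genes were named as the 10 with the smallest p per direction among those without overlap, the 5 with the largest differences at 1 CPM or more, the hormone, receptor and lineage factor lists, up to 4 members of other lists, genes called by another tool, and others said to be chosen after their values were seen. Only genes with a symbol entered the rankings by p and by size. Members, lists and rules were chosen with earlier results of these data known. List medians are descriptions without a test. Some members of the lists are not reported here. Alternatives were the other tables, tools, scalings and filters, leaving out each bird, all 16 libraries, and a replicate block. Counts do not use strand as far as stated, so overlapping genes cannot be told apart.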

Additional observations from a re-analysis of the deposited data

Results flagged for a closer look

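In 21 of 180 groups of 4 birds checked (90 genes, 2 groups each), 1 bird stood far from the other 3. Chance flags about 5 percent of groups, but some of these genes were named for a large difference or a call that 1 bird can set, so the count cannot be compared with that share. Bird 50 was that bird 8 times. It stood at 264.9 CPM in TNNC2 (others of its group 4.58 to 20.7), 608 in ACTA1 (25.7 to 78.1), 46.8 in PFKM (1.32 to 4.85), 22.8 in CACNA1S (1.03 to 1.42), 60.1 in GFAP (2.91 to 4.78), 25.5 in AGRP (1.11 to 2.87), 104 in LIMCH1 (82.9 to 86.2) and 117 in HPCAL1 (95.4 to 98.1). Muscle and astrocyte markers were highest in that library, and their part in these values was not tested.

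Bird 54 stood apart 4 times, at 13.03 CPM in SLC26A1 (0.895 to 2.00) and 55.4 in CCNB1 (3.36 to 5.40), above the other high-growth birds, and at 139 in INSM1 (227 to 244) and 63.9 in AVPR1A (114 to 123), below them. Bird 49 had 58.1 CPM of Metazoa_SRP (4.90 to 12.5).

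Among the low-growth birds, bird 33 stood apart at 120 CPM in CALB2 (85.7 to 90.4), 17.7 in BMP7 (16.1 to 16.2), 159 in PER2 (104 to 111) and 8.11 in LHFPL5 (11.5 to 11.8). In CALB2, BMP7 and LHFPL5 this brings the bird nearer to the high-growth group, and in PER2 takes it farther away. Bird 37 stood at 60.8 CPM in VAMP1 (48.1 to 49.5), 129 in CACNA1G (86.7 to 92.3) and 248 in CEBPD (112 to 132), and bird 38 at 54.9 CPM in TNNC2 (3.77 to 6.59).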

How the results depend on the processing

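EdgeR passed 0 genes in every alternative but the fit of all 16 libraries, where 1 passed (LHFPL5, with 560 at an unadjusted p under 0.05). The DESeq2 Wald test called 5, also with a filtering target of 0.1 in place of 0.05, added after seeing the data. Genes at an unadjusted p under 0.05 and genes without overlap numbered 266 and 195 in the main analysis, 1959 and 2065 by kallisto, 3027 and 2619 by Salmon, whose tables hold many more rows. With 1 bird left out they numbered 211 to 545 and 360 to 720, with 0 passing, where fewer birds make overlap rarer and bird 54 gave the highest counts. Without birds 38, 40 and 50, chosen after seeing the data, 0 passed and 1676 had no overlap. The labels also number the birds of a group as replicates 1 to 4, pairing 49 with 33, 50 with 37, 52 with 38 and 54 with 40 by number alone. Same-numbered birds deviated together in 1 pair of 4 (correlations 0.40, -0.20, -0.08 and 0.09, with 2 of 8 libraries closest to their own number), and with this replicate block 0 genes passed and 438 had an unadjusted p under 0.05. The interaction passed 0 genes by edgeR and 1 by DESeq2. Of 90 genes followed, 16 changed sign under some alternative, and the cause was not tested. VAMP1 read -0.051 by kallisto. Without birds 38, 40 and 50 AGRP read 1.18, CGA 0.12, SSTR2 -0.72 and TRHR -0.11. With 1 bird left out the log2 difference ranged over -0.42 to 2.44 in ACTA1, -0.043 to 0.22 in AVPR1B, -0.58 to 2.74 in CACNA1S, -0.54 to 1.93 in CCNB1, -0.55 to 0.081 in CGA, -0.77 to 2.05 in GFAP, -0.48 to 2.93 in PFKM, -0.17 to 0.040 in POU1F1, -0.21 to 0.46 in PRL, -0.12 to 1.83 in SLC13A3, -0.35 to 0.45 in SSTR2, -0.30 to 0.11 in SSTR5, -0.78 to 3.75 in TNNC2 and -0.10 to 0.30 in TRHR. Medians kept their sign in all 18 settings in 14 of 39 lists. Genes under 10 CPM have wide intervals, which limits what could be detected there.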

Other observations

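Among groups not described above, FGF signalling had 17 of 24 genes higher (median 0.07) and kept the sign of its median in all settings. Immediate early genes were lower in 11 of 18 (median -0.11), with list levels of 0.24, -0.32, 0.02 and -0.24 in the high-growth birds, against -0.42, 0.09, 0.35 and 0.29 in the low-growth birds, which overlap. WNT signalling split 20 higher to 19 lower (median 0.01), Notch signalling 9 to 13 (median -0.03), ephrins and Eph receptors 8 to 7 (median 0.01), potassium and sodium channels 15 to 19 (median -0.02), V-type proton pump subunits 7 to 7 (median -0.03) and genes of thyroid hormone handling 5 to 3 (median 0.04). Markers of endothelium (6 higher, 6 lower, median -0.02) and of neurons (6 higher, 6 lower, median 0.01) showed no common side.

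The authors' deposited tables call 53 pituitary genes in the second gene table, 57 in the kallisto table and 19 in the Salmon table, of which 10, 7 and 2 had no overlap between groups. Over all genes tested there, the shares without overlap were 1.57%, 2.23% and 2.38%.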
